A study of Mus musculus with 32 samples.

Results

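Lungs of newborn mice kept in normoxia (room air) were compared between postnatal day (P)5.5 and P3.5 for the levels of all mouse microRNAs (miRNAs) on a 1-colour array. The members were chosen from the sample labels: 4 arrays of normoxia lungs harvested at P5.5 (replicates 17 to 20) and 4 of normoxia lungs harvested at P3.5 (replicates 9 to 12), which together are 8 of the 32 arrays of the study. The study combined normoxia or hyperoxia (raised oxygen) from the day of birth with 4 ages at harvest (P2.5 and P14.5 beside those compared), with 4 arrays in each of 8 groups. The study's wild-type mice were C57Bl/6J, and the array labels name no genotype. All pups of both ages had been randomized at birth with balanced litters, were given pentobarbital at harvest, and had their lungs flushed with buffer through the heart until white. RNA came from whole lung, so that fewer cells of a type and less RNA per cell cannot be told apart. The sex and the litter of each pup were not in the labels, and p-values measure the spread between these 4 arrays a group, taken as 1 pup each.

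In the mouse, alveoli form after birth by secondary septation, in which new septa grow out from the walls of the saccules and divide the airspaces. P3.5 lies close to its onset and P5.5 near its most active phase. MiRNAs are short RNAs that bind target mRNAs mainly through their seed, the bases at positions 2 to 8 from the 5′ end, and lower the stability or translation of these targets. MiRNAs with the same seed form a family. Many are made from clusters in which 1 transcript carries several miRNAs, as in the imprinted Dlk1-Dio3 region of chromosome 12, whose miRNAs are known for high levels in the fetus and low levels in most adult tissues, while let-7 members are known for higher levels as tissues mature.

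The 2 ages lay on different slides with different scan days (P3.5 on slides 1 and 2, P5.5 on slides 3 and 4), so that age and slide or scan day cannot be told apart in this comparison. The P5.5 arrays were also dimmer. Their label spike-in, a control RNA added to each reaction, read 2.53 to 2.62 on a log10 scale against 2.80 to 2.99 at P3.5, and they detected 236 to 284 miRNAs against 296 to 316. A miRNA counted as detected where any of its probes was well above background, and the number of arrays limits the precision. The lowest signal well above background stood at 3.75 to 4.52 (log2) at P5.5 and at 3.26 to 3.5 at P3.5, which bears on every low miRNA described here. Replicates of an age correlated at 0.985 or more across miRNAs.

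The sequences that carry the main results are shown first, from RefSeq (GRCm38.p6), with the seed in capitals. Of the 1079 mouse miRNAs on the array 871 matched an entry, among them 89 of the 106 that passed the threshold described below. The first set holds members of the let-7 seed family, of which let-7b, let-7c and let-7i rose while let-7f and miR-98 fell. Over 24 alternative settings described below, the calls of these rises held in 23, 20 and 16. The falls were less stable, as the calls of let-7f and miR-98 held in 6 and 7.
let-7b-5p: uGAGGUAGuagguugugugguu
let-7c-5p: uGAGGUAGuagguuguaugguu
let-7i-5p: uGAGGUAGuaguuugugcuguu
let-7f-5p: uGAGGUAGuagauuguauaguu
miR-98-5p: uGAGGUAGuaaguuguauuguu

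The next set shares the miR-15 seed. MiR-195 and miR-497, which are neighbours at chr11:70234730-70234751 (miR-497, plus strand) and chr11:70235062-70235082 (miR-195, plus strand), rose. MiR-322, at chrX:53054306-53054327 on the minus strand, fell. Over the 24 settings the calls of miR-195, miR-497 and miR-322 held in 23, 24 and 19.
miR-195-5p: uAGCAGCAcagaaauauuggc
miR-497-5p: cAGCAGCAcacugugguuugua
miR-322-5p: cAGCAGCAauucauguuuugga

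The last set holds falls from the Dlk1-Dio3 region, miR-335 from chromosome 6, and miR-34a, which is the miRNA the study pursued. The members of the Dlk1-Dio3 region shown here moved in 1 direction without sharing a seed with each other. They are on the plus strand at chr12:109595331-109595352 (miR-136-5p), chr12:109723824-109723844 (miR-376a-3p) and chr12:109740553-109740574 (miR-377-3p). MiR-335-5p is at chr6:30741314-30741336 on the plus strand and miR-34a-5p at chr4:150068473-150068494 on the plus strand.
miR-136-5p: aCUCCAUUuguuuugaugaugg
miR-376a-3p: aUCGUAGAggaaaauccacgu
miR-377-3p: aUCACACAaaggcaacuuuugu
miR-335-5p: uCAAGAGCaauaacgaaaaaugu
miR-34a-5p: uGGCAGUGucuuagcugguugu

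Between P3.5 and P5.5 more miRNAs fell than rose. Of the 290 miRNAs detected on all 4 arrays of at least 1 age, 106 (36.6%) passed an adjusted p of 0.05 (limma, two-sided, Benjamini-Hochberg), 27 upward (9.31%) and 79 downward (27.2%). The groups did not overlap for 112 of them (38.6%), with the P5.5 arrays lower for 86 and higher for 26. Most differences were small. The median size of a difference was 0.29 on the log2 scale, against a median standard error (SE) of 0.12 and a median SD between replicates of 0.16 at either age, and 14 miRNAs differed by at least 2-fold. The direction was partly a matter of scaling. The median difference over the 290 miRNAs was -0.13 as scaled and 0.00 with quantile normalization, under which 99 passed, of which 44 rose. Quantile normalization gives every array the same distribution of levels, so a median near 0 is largely set by that method. The falls also reached to the edge of detection. Each of the 27 rises was detected on all 8 arrays, whereas 29 of the 79 falls were not, and 11 of these were detected on no P5.5 array. Of the 290 miRNAs, 17 were detected on no P5.5 array and 0 on no P3.5 array. These 17 were tested through P3.5 alone and could hardly pass as rises. Over the 233 miRNAs detected on all 8 arrays 50 fell and 27 rose, with a median of -0.04. The shares of 27.2% and 9.31% are over all 290 wherever they are given below.

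**Figure D1:**
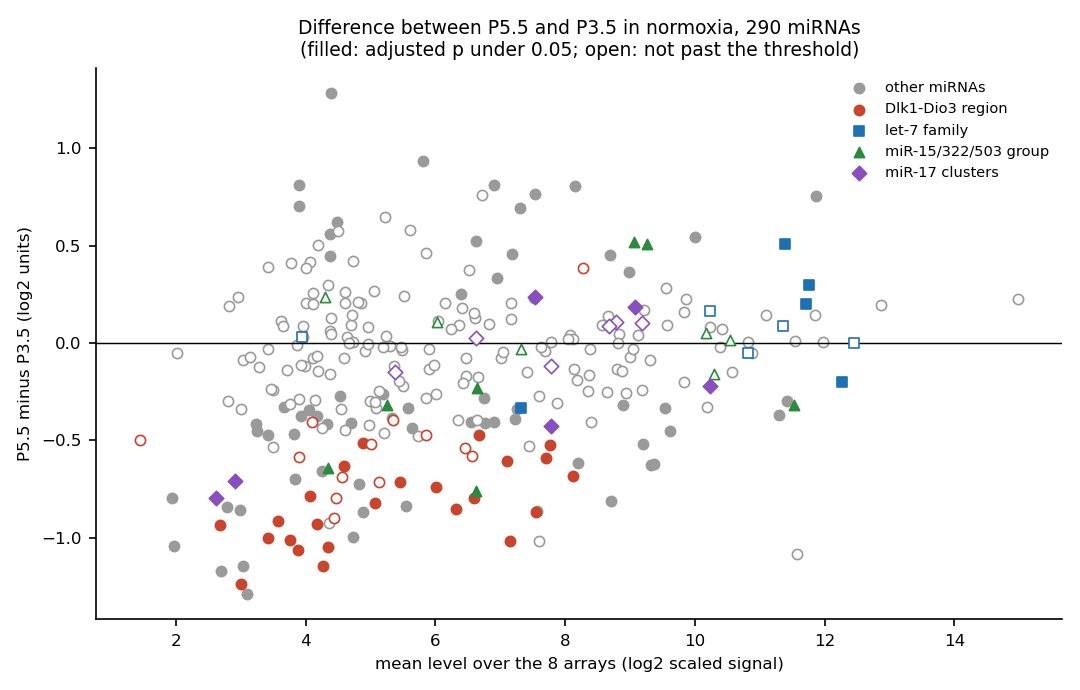
Difference between P5.5 and P3.5 in normoxia (y axis, log2 units) against the mean level over the 8 arrays (x axis, log2 scaled signal) for the 290 miRNAs tested, with filled points for the 27 that rose and the 79 that fell. The falls are more frequent, and many of the largest ones sit at low levels, while the rises spread from low to high levels.

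Among miRNAs past the threshold that were detected on all 8 arrays and did not overlap between the ages, miR-376a-3p fell most. Its level was 8.02, 7.37, 7.79 and 7.45 (log2 scaled signal) on the P3.5 arrays and 6.60, 6.41, 6.87 and 6.68 on the P5.5 arrays. The difference of -1.02 (SE 0.16, adjusted p = 0.00362) is a 2.03-fold lower level. Every P5.5 array lay below every P3.5 array. From the same region of chromosome 12, miR-136-5p read 8.09, 7.89, 8.08 and 7.87 at P3.5 and 6.92, 7.15, 7.01 and 7.38 at P5.5, a fall of 0.87 (SE 0.11, adjusted p = 0.00216). MiR-377-3p read 7.13, 6.54, 6.74 and 6.60 at P3.5 and 5.86, 5.65, 6.05 and 6.03 at P5.5, and fell by 0.85 (SE 0.15, adjusted p = 0.00453). For miR-376a-3p and miR-377-3p, replicate 9 was the highest of the P3.5 arrays.

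Not all of the largest falls came from this region. MiR-335-5p, which lies in an intron of the imprinted gene Mest, had the smallest p-value of all and showed little spread. It read 8.98, 9.08, 9.16 and 9.24 at P3.5 and 8.30, 8.20, 8.29 and 8.40 at P5.5, a difference of -0.81 (SE 0.08, adjusted p = 0.00187). The 2 ages were separated by a gap wider than the range of either. MiR-450a-5p, from the cluster of miR-322 and miR-503 on the X chromosome, read 7.05, 6.93, 6.98 and 7.08 at P3.5 and 6.09, 6.31, 6.09 and 6.5 at P5.5, and fell by 0.76 (SE 0.10, adjusted p = 0.00216). MiR-224-5p, another miRNA of the X chromosome, went from 5.31 ± 0.23 to 4.44 ± 0.20 (SD, n = 4 each), a fall of 0.87 (adjusted p = 0.00366 with limma). MiR-10b-5p, from within the Hoxd gene cluster, also fell (difference -0.84, SE 0.28, adjusted p = 0.0479). Its P3.5 arrays ranged from 5.45 to 6.69, the latter in replicate 9, and the call was lost when any of 6 arrays was left out (difference -0.59, adjusted p = 0.0608 without replicate 9).

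The Dlk1-Dio3 region gave the largest group of falls. Of 107 miRNAs of the region on the array 37 were tested and 61 were detected on none of the 8 arrays. Of the 37, 24 fell and 0 rose, against 27.2% falls over all miRNAs tested, and the median difference was -0.72 against -0.13. For 27 of the 37 the ages did not overlap, each lower at P5.5, against 86 of 290 lower without overlap over all. The difference was below 0 for 36 of the 37, against 181 of 290 over all. The exception was miR-494-3p, with a difference of 0.38 (SE 0.62, adjusted p = 0.658) that turned negative without replicate 9. The counts over the 37 include members not detected on every array, and those tested through P3.5 alone could hardly pass as rises. Over the 24 members detected on all 8 arrays the median was -0.66, against -0.04 over all miRNAs so detected. MiR-127-3p was at 8.47 at P3.5 and at 7.79 at P5.5 (difference -0.69, SE 0.15, adjusted p = 0.0135). MiR-434-5p fell by 0.82 (SE 0.14, adjusted p = 0.00382) and miR-329-3p by 0.80 (SE 0.19, adjusted p = 0.0175). MiR-337-3p went from 4.64 to 3.71, where all 4 P5.5 arrays were under the lowest signal well above background. These miRNAs come from shared transcripts, so the members are not independent of each other. P3.5 replicate 9 was the highest array for several of them, and without it 24 fell (75 of 290 over all), with a median of -0.53 against -0.12. The number of falls was lower in other settings, at 15 without P5.5 replicate 17 or 18, 11 with the methods' t-test and 8 with a higher floor, and 0 rose in each. The median was -0.16 with normexp background correction, under which 19 fell.

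**Figure D2:**
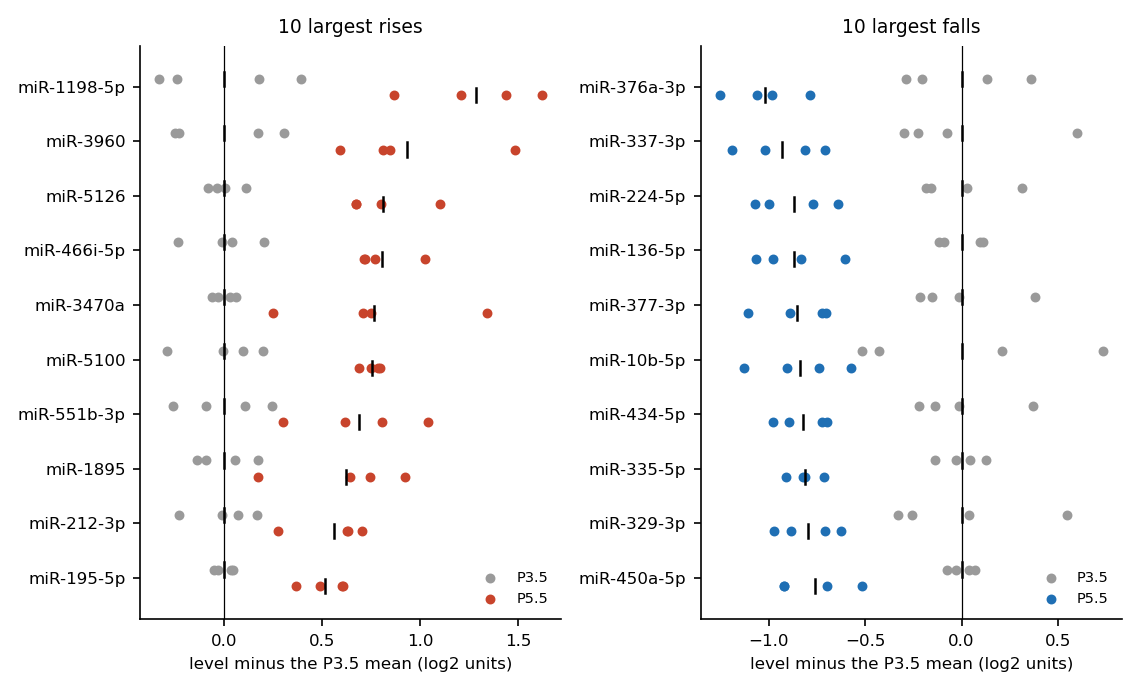
The 10 largest rises and the 10 largest falls among miRNAs past an adjusted p of 0.05, detected on all 8 arrays and without overlap between ages, drawn per array as the level minus the P3.5 mean (x axis, log2 units), with P3.5 and P5.5 arrays as separate symbols. In every row the 4 arrays of one age lie apart from the 4 of the other, and the P3.5 arrays spread most for miR-10b-5p, whose SD was 0.58.

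The largest rise was that of miR-1198-5p, a low miRNA of the X chromosome. It read 3.51, 3.93, 4.14 and 3.42 at P3.5 and 5.19, 5.37, 4.61 and 4.95 at P5.5, a difference of 1.28 (SE 0.21, adjusted p = 0.00377). P3.5 replicate 12 (3.42) and P5.5 replicate 19 (4.61) lay little above their arrays' lowest signal well above background, 3.31 and 4.52. The size of the rise of miR-1198-5p varied, from 0.34 with normexp background correction to 1.87 with the deposited series values. Its call held in 23 of 24 alternative settings. MiR-5100 rose from 11.21, 11.59, 11.70 and 11.49 to 12.29, 12.28, 12.18 and 12.25 (difference 0.75, SE 0.11, adjusted p = 0.00216). MiR-466i-5p rose by 0.81 (SE 0.11, adjusted p = 0.00216), from 7.51 to 7.95 over the P3.5 arrays to 8.46 to 8.77 over the P5.5 arrays. None of these arrays overlapped between ages. MiR-551b-3p rose from 6.96 ± 0.22 to 7.65 ± 0.31 (SD, n = 4 each; difference 0.69, limma adjusted p = 0.0192), with a call that was lost without P5.5 replicate 17 (difference 0.65, adjusted p = 0.0529). MiR-3960, miR-5126, miR-3470a, miR-1895 and miR-212-3p made up the rest of the 10 largest rises together with miR-195-5p, with differences from 0.52 to 0.93.

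Calls within 1 seed family went in both directions. The let-7 seed GAGGUAG was shared by 9 tested miRNAs, of which 3 rose and 2 fell, beside 9.31% rises and 27.2% falls over all miRNAs tested. Let-7b-5p read 11.20, 11.10, 11.14 and 11.08 at P3.5 and 11.54, 11.70, 11.66 and 11.66 at P5.5 (difference 0.51, SE 0.06, adjusted p = 0.00216). Let-7c-5p rose by 0.30 (SE 0.07, adjusted p = 0.0135) and let-7i-5p by 0.20 (SE 0.05, adjusted p = 0.0212), and neither overlapped between ages. Let-7f-5p fell by 0.20 (adjusted p = 0.043), and miR-98-5p, from the X chromosome, fell by 0.33 (SE 0.10, adjusted p = 0.0323), from 7.43 to 7.59 over the P3.5 arrays to 6.95 to 7.34 at P5.5. The summed level of the let-7 list was 14.56 to 14.69 at P3.5 and 14.63 to 14.76 at P5.5, so that the ages overlapped. With quantile normalization 1 of the 10 members tested rose and 0 fell, against 44 rises and 55 falls over all 290. The 2 falls were the less stable calls. That of let-7f-5p was lost whichever of the 8 arrays was left out (adjusted p 0.0546 or more in each), and the call of miR-98-5p without any of 5 arrays, while that of let-7i-5p was lost without P3.5 replicate 11 or P5.5 replicate 20. Without P3.5 replicate 9, 4 of the 10 rose and 0 fell, against 26 rises and 75 falls over all 290.

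The miR-15 seed AGCAGCA was shared by 6 tested miRNAs, which are known to lower cell cycle genes in many tissues. MiR-195-5p read 8.85, 8.77, 8.75 and 8.84 at P3.5 and 9.41, 9.41, 9.17 and 9.29 at P5.5 (difference 0.52, SE 0.07, adjusted p = 0.00216). Its neighbour miR-497-5p read 9.00, 9.01, 8.96 and 9.06 at P3.5 and 9.59, 9.60, 9.38 and 9.49 at P5.5 (difference 0.51, SE 0.07, adjusted p = 0.00216). The same 2 P5.5 arrays, replicates 17 and 18, were highest for each. MiR-322-5p fell by 0.32 (adjusted p = 0.011), and its other arm miR-322-3p fell by 0.64 (SE 0.09, adjusted p = 0.00256). Over the list of the miR-15, miR-322 and miR-503 clusters, 2 of 13 tested members rose (9.31% over all) and 5 fell (27.2% over all), with a median of -0.03 (0.01 with quantile normalization).

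Of the miR-17 clusters, which are known for promoting growth of the embryonic lung epithelium, 12 of 27 members were tested, 2 rose and 4 fell, beside 9.31% rises and 27.2% falls over all. MiR-20a-5p rose by 0.18 (adjusted p = 0.0404) and miR-93-5p by 0.24 (SE 0.07, adjusted p = 0.0248). MiR-20a-5p read 8.94 to 9.09 at P3.5 and 9.16 to 9.18 at P5.5, but its call was lost without any of 7 arrays and that of miR-93-5p without any of 5. MiR-19a-3p, from the same transcript as miR-20a, fell by 0.42 (SE 0.07, adjusted p = 0.00366), from 8.00 to 7.57, and did not pass with quantile normalization (-0.32, adjusted p = 0.051). MiR-17-5p and miR-20a-3p also passed as falls, but lay near the detection limit, with 0 and 1 of the 4 P5.5 arrays detected. The median of the list was -0.05, and 0.10 with quantile normalization.

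The direction of a difference went with the GC content of the probes. The median probe GC content was 54.6% over the rises, 48.7% over the miRNAs not past the threshold and 41.1% over the falls. Under 40% GC 33 of 52 miRNAs fell and 0 rose, whereas from 60% GC 2 of 48 fell and 10 rose. Across the 290 miRNAs, which share the same 8 arrays, the difference correlated with probe GC at Pearson's r of 0.477 and Spearman's rho of 0.443. Relative to the mean of the 8 arrays, levels went down with GC on each P3.5 array, by 0.05 to 0.15 log2 units per 10 points, and went up on each P5.5 array by 0.07 to 0.12. The part of this trend in the age differences was not tested, as slide and age cannot be told apart.

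When each array's linear trend with GC was removed, 81 miRNAs passed (26 rose), and 64 of the 106 passed in the same direction. MiR-376a-3p (difference -0.91), miR-335-5p (-0.50), let-7b-5p (0.57), miR-195-5p (0.58) and miR-497-5p (0.52) passed there too. Of the 37 Dlk1-Dio3 members tested 23 fell, against 55 of 290 over all. The rise of miR-5126, all of whose 22 bases are G or C, went from 0.81 to 0.03 (adjusted p = 0.882). That of miR-3960 went from 0.93 to 0.29 (adjusted p = 0.24). A further 3 of the 10 largest rises no longer passed, miR-3470a at 0.57 (adjusted p = 0.0658), miR-1895 at 0.37 (adjusted p = 0.107) and miR-212-3p at 0.29 (adjusted p = 0.116). Of the smaller differences, miR-19a-3p went to -0.18 (adjusted p = 0.0967), miR-322-5p to -0.16 (adjusted p = 0.125) and miR-93-5p to 0.16 (adjusted p = 0.116). MiR-98-5p, miR-29b-3p, miR-199a-3p, miR-125a-3p, miR-126-5p and miR-146a-5p were not past the threshold there either. Let-7f-5p changed sign, from -0.20 to 0.08. Of the 10 let-7 members tested 6 rose and 0 fell there, against 26 rises and 55 falls over all 290.

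**Figure D3:**
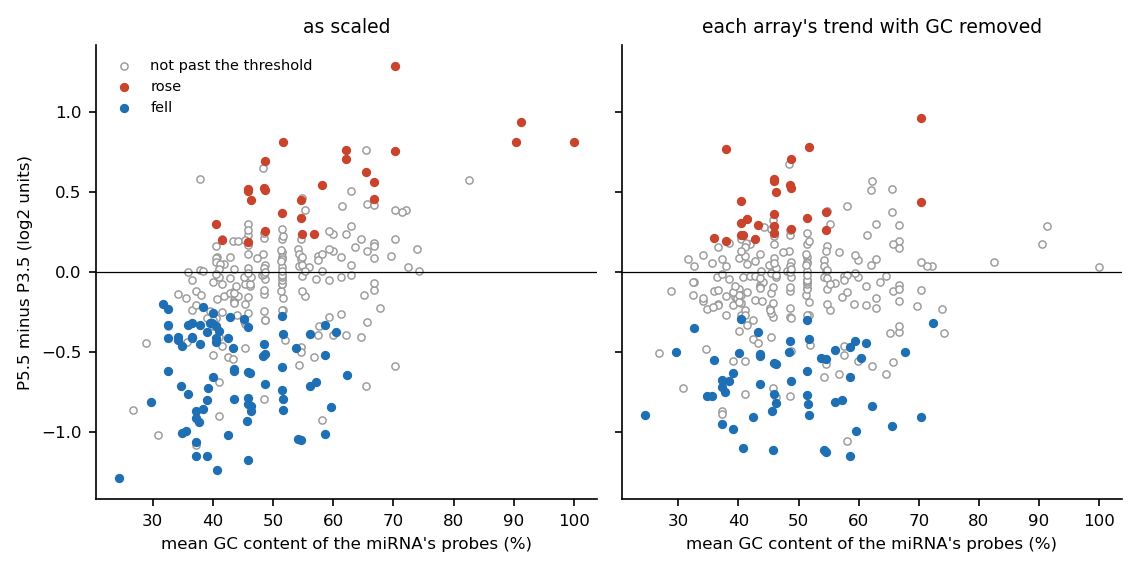
Difference between P5.5 and P3.5 (y axis, log2 units) against the mean GC content of each miRNA's probes (x axis, %) for the 290 miRNAs tested, as scaled on the left and with each array's linear GC trend removed on the right. On the left, falls gather at low GC and rises at high GC (Pearson's r = 0.477), and on the right 81 miRNAs pass the threshold.

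Lists of miRNAs known to mark cell types or processes were described by counts. Among mesenchymal miRNAs 7 of 9 members were tested, 4 fell and 0 rose, against 27.2% falls over all, and the median was -0.37 against -0.13. MiR-199a-5p, a miRNA of fibroblasts made with miR-214 from 1 transcript, read 9.94, 9.45, 9.63 and 9.54 at P3.5 and 8.94, 8.92, 9.02 and 9.18 at P5.5 (difference -0.63, SE 0.12, adjusted p = 0.00559). MiR-199a-3p fell by 0.37 (adjusted p = 0.0182) and miR-214-3p by 0.39 (adjusted p = 0.0191). MiR-143-3p, a smooth muscle miRNA, was at 9.30 and 9.06 and did not pass (adjusted p = 0.17). The summed level of the list was 12.42 to 12.81 at P3.5 and 12.17 to 12.33 at P5.5, without overlap.

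Markers of the other lung cell types were present. The epithelial miR-200 family had 0 calls among 5 members tested (36.6% over all), with a median of -0.07 against -0.13. Its summed level was 11.36 to 11.69 at P3.5 and 11.40 to 11.57 at P5.5. Without P3.5 replicate 9, 2 of the 5 fell (75 of 290 over all), miR-200a-3p (difference -0.35, adjusted p = 0.00902) and miR-200b-3p (-0.26, adjusted p = 0.0251). The median was then -0.16 against -0.12. In endothelium, miR-126-3p was at 12.78 and 12.97 (difference 0.19, 95% interval 0.01 to 0.37, adjusted p = 0.09), while its other arm miR-126-5p fell by 0.41 (adjusted p = 0.0479), a call lost without any of 6 arrays. MiR-449a-5p, known from multiciliated airway cells, read 10.14, 9.55, 9.49 and 9.57 at P3.5 and 9.16, 8.92, 8.92 and 9.26 at P5.5 (difference -0.62, SE 0.16, adjusted p = 0.0212), and its call was lost without P5.5 replicate 18 or 19. Among leukocyte miRNAs 2 of 5 tested members fell (27.2% over all), miR-150-5p of lymphocytes by 0.39 (adjusted p = 0.0279) and miR-146a-5p by 0.34 (adjusted p = 0.0479), and these calls were lost without any of 6 and of 7 arrays. The myeloid miR-223-3p, at 8.78 and 8.53, and miR-142-3p, at 8.45 and 8.28, did not pass.

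Blood and muscle miRNAs varied widely between pups. The erythroid miR-451 was at 12.25, 11.68, 11.72 and 12.80 at P3.5 and at 11.52, 11.66, 10.62 and 10.32 at P5.5, and its difference of -1.08 (SE 0.37, adjusted p = 0.0516) missed the threshold although the ages did not overlap. Of the 4 erythroid miRNAs tested 0 passed (36.6% over all). The other members differed by -1.02 (miR-144-3p, adjusted p = 0.0684), -0.44 (miR-144-5p, adjusted p = 0.38) and 0.002 (miR-3107-5p, adjusted p = 0.998). The summed level of 5 erythroid miRNAs, 1 of them detected on no array, was 11.79 to 12.90 at P3.5 and 10.44 to 11.79 at P5.5. The muscle and heart miR-1a-3p was at 10.44 in P3.5 replicate 9 and between 6.45 and 7.73 on the other P3.5 arrays (difference between ages -0.86, SE 0.78, adjusted p = 0.414). The same replicate was the highest at P3.5 for miR-10b-5p, miR-376a-3p, miR-377-3p, miR-199a-5p and miR-449a-5p. The summed level of the 15 muscle and heart miRNAs, 7 of them detected on no array, ranged from 7.84 to 11.74 at P3.5 and from 7.97 to 9.30 at P5.5. The part of blood and of muscle in the results was not tested.

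**Figure D4:**
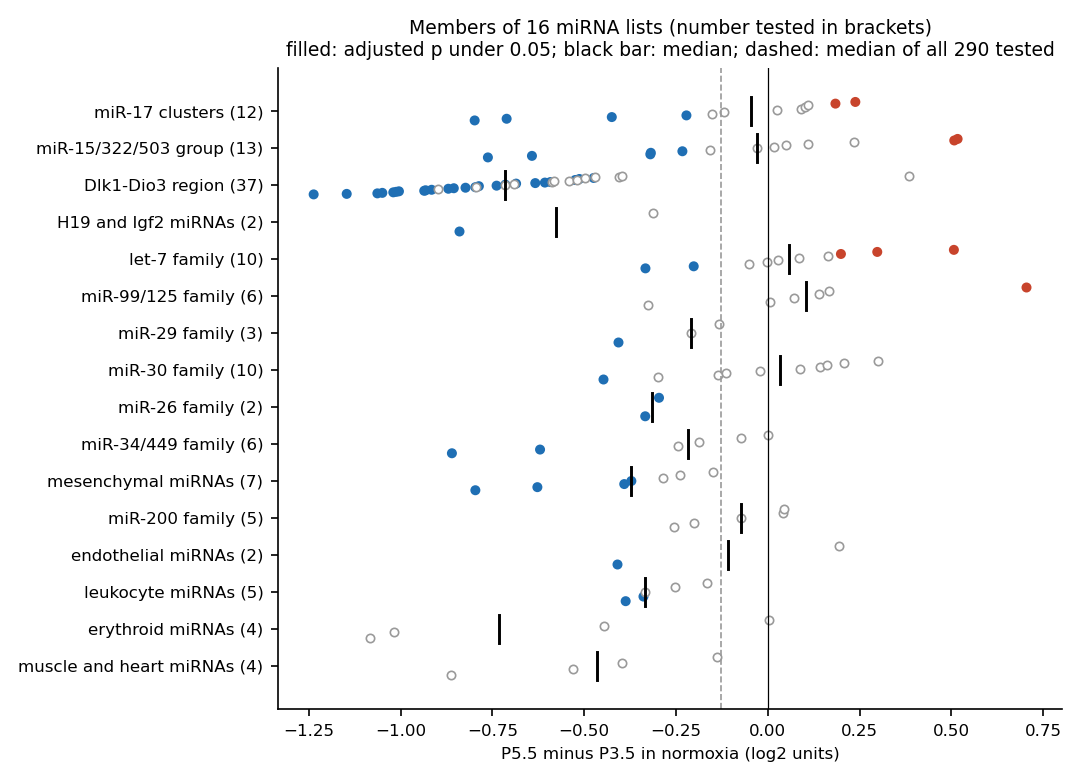
Difference between P5.5 and P3.5 in normoxia (x axis, log2 units) of each tested member of 16 miRNA lists (rows, number tested in brackets), with filled points past the threshold, a black bar at each list's median and a dashed line at the median of all 290. The Dlk1-Dio3 members lie to the left with a median of -0.72, whereas members of the let-7 list lie on both sides of 0.

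Calls were fewer in the other families, several of which were small. Both tested miR-26 members fell (27.2% over all), miR-26b-5p by 0.33 (adjusted p = 0.00453) and miR-26a-5p by 0.30 (adjusted p = 0.0203). The call of miR-26a-5p was lost without P3.5 replicate 11 or 12. Neither miR-26b-5p nor miR-26a-5p passed with the GC trend removed (-0.12, adjusted p = 0.128, and -0.23, adjusted p = 0.0654). In the miR-30 family 1 of 10 fell (27.2% over all), miR-30b-5p by 0.45 (SE 0.08, adjusted p = 0.00492). Of 6 tested members of the family of miR-99 and miR-125, miR-125a-3p alone rose (9.31% over all), by 0.70 (adjusted p = 0.0468). It rose from a level near the detection limit, and the call was lost without any of 6 arrays. The miR-29 family, whose targets include collagen and elastin mRNAs, had 1 fall among 3 tested members (27.2% over all). MiR-29b-3p fell by 0.41 (adjusted p = 0.0286), a call lost without any of 6 arrays. MiR-29a-3p differed by -0.13 (95% interval -0.47 to 0.20, adjusted p = 0.506) and miR-29c-3p by -0.21 (95% interval -0.58 to 0.16, adjusted p = 0.339).

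MiR-34a-5p, a target of p53, was at 8.67, 8.80, 8.90 and 8.88 at P3.5 and at 8.83, 8.73, 8.78 and 8.90 at P5.5 in normoxia. The means of 8.81 at each age differed by less than 0.01, and the 95% interval of the difference ran from -0.17 to 0.17. MiR-34b-5p (difference -0.24, adjusted p = 0.206), miR-34c-5p (-0.19, adjusted p = 0.227) and miR-34c-3p (-0.07, adjusted p = 0.765) did not pass either. MiR-34b-3p passed as a fall but was detected on no P5.5 array.

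For the 11 falls that were detected on no P5.5 array, the P5.5 level is only a bound. MiR-380-3p, of the Dlk1-Dio3 region, was at 4.40 at P3.5 and not well above background at P5.5, which makes it at least 1.26-fold lower at P5.5 (adjusted p = 0.0392 on the measured values, lost without any of 4 arrays). The bound sets the P3.5 mean against the higher of the measured value and the lowest signal well above background on each P5.5 array. MiR-5117-5p (adjusted p = 0.00507), miR-3069-3p (adjusted p = 0.00338), miR-17-5p, miR-376b-5p, miR-675-3p, miR-34b-3p and miR-214-5p had no fold above 1 against that limit. MiR-675-3p, which is cut from the imprinted H19 transcript, was the 1 member of 2 tested in the H19 and Igf2 list that passed (36.6% over all).

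The neighbouring steps put the change in context. Between P2.5 and P3.5 in normoxia, whose arrays shared slides 1 and 2, 0 of 290 miRNAs passed in limma (0%; 19 at an unadjusted p under 0.05), and the median size of a difference was 0.09 against 0.29 from P3.5 to P5.5. This step shares the P3.5 arrays with the comparison of P5.5 and P3.5, but spans a shorter time, so the sizes are not for equal intervals. At a fixed group, slide 2 differed from slide 1 for 0 of 303 miRNAs (0%; 10 unadjusted), with a median size of 0.06, and slide 4 from slide 3 at P5.5 for 3 of 254 (1.18%; 40 unadjusted), with a median size of 0.09. Each of these pairs of slides was scanned on 1 day, and none of the fits sets slides 1 and 2 against slides 3 and 4 at a fixed age.

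Over the 4 ages in normoxia, miR-376a-3p stood at 7.68 ± 0.24, 7.66 ± 0.30, 6.64 ± 0.19 and 4.81 ± 0.08 (mean ± SD, n = 4 each, P2.5 to P14.5). MiR-335-5p stood at 9.18, 9.11, 8.30 and 7.22, and let-7b-5p at 11.07, 11.13, 11.64 and 12.32. For these miRNAs the P5.5 level lay between those of P3.5 and P14.5, as it did for miR-195-5p at 8.92, 8.80, 9.32 and 10.08. MiR-450a-5p, at 7.00, 7.01, 6.25 and 6.33, was about as low at P5.5 as at P14.5. Other rises ran differently, with miR-1198-5p at 4.13, 3.75, 5.03 and 4.20 and miR-5100 at 11.67, 11.50, 12.25 and 11.73, each highest at P5.5. The P14.5 pups were given another anaesthetic, and their levels are a description with no test. On normoxia P14.5 replicate 28 the label spike-in was out of range and 223 miRNAs were detected. Its lowest signal well above background was 4.81. The P14.5 mean of miR-1198-5p lay under that value and the mean of miR-376a-3p was about at it, so both rest in part on signals near the detection limit.

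**Figure D5:**
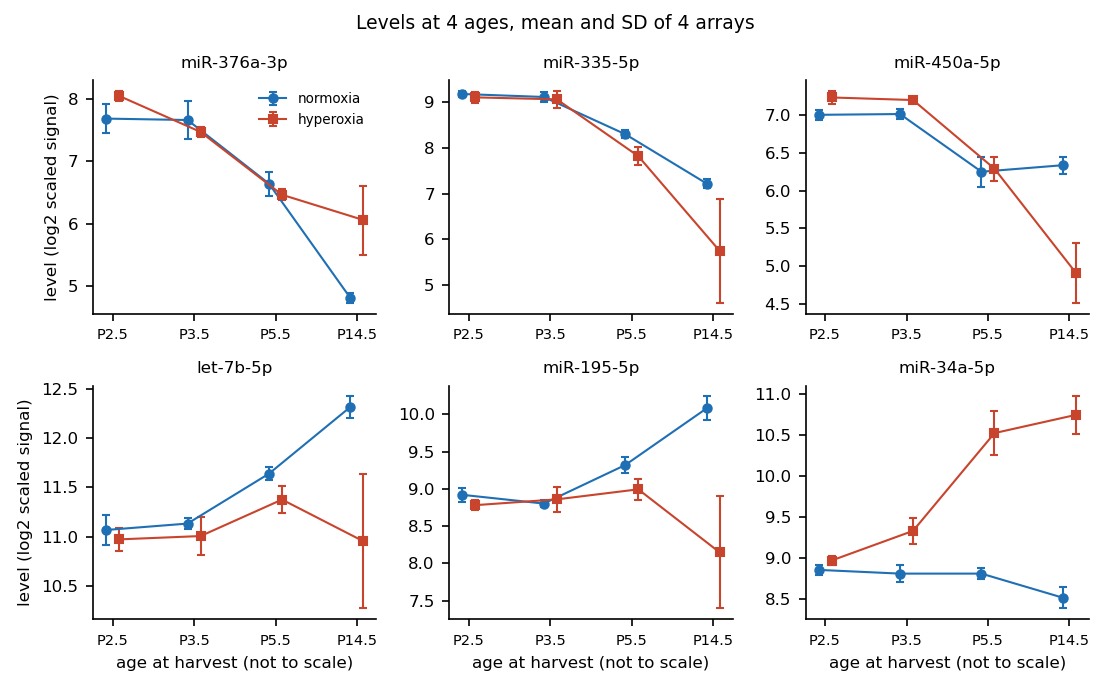
Level (y axis, log2 scaled signal) of 6 miRNAs at the 4 ages (x axis, not to scale) in normoxia and hyperoxia, as the mean and SD of 4 arrays. In normoxia miR-376a-3p, miR-335-5p and miR-450a-5p are lower and let-7b-5p and miR-195-5p higher at P5.5 than at P3.5, and miR-34a-5p stays within 8.52 to 8.86 in normoxia while it reaches 10.53 at P5.5 in hyperoxia. At P14.5 the label spike-in was out of range on normoxia replicate 28 and hyperoxia replicates 29 and 31.

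In hyperoxia the same step had 175 of 300 miRNAs past the threshold (58.3%), of which 144 fell (48%). The slides of each age held both exposures, so that the split of ages between slides is the same for both, apart from 1 hyperoxia P5.5 array on slide 5. The change itself differed between exposures for 11 of 303 miRNAs (3.63%; limma interaction term; 59 at an unadjusted p under 0.05). This count was sensitive to the settings. It was 1 with the percentile over all probes, with the total gene signal or with all 32 arrays in the fit, 37 with array weights, and 5 to 22 without 1 array (5 without hyperoxia P3.5 replicate 13, 14 or 16 or normoxia P5.5 replicate 20, 22 without hyperoxia P3.5 replicate 15). MiR-34a-5p had the smallest p. In hyperoxia it read 9.21, 9.56, 9.33 and 9.23 at P3.5 and 10.87, 10.43, 10.22 and 10.59 at P5.5, so that its change of 1.19 exceeded that in normoxia by 1.19 (SE 0.17, adjusted p = 0.00139).

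The other 10 differences were negative, among them those of 3 miRNAs of the miR-15 and miR-17 seed families that rose in normoxia. MiR-497-5p rose in normoxia by 0.51 and changed by 0.08 in hyperoxia (difference of the changes -0.43, SE 0.09, adjusted p = 0.0159). MiR-93-5p changed by 0.24 in normoxia and -0.19 in hyperoxia (-0.43, SE 0.08, adjusted p = 0.0159), and miR-20a-5p by 0.18 and -0.20 (-0.39, SE 0.08, adjusted p = 0.0159). MiR-18a-5p, from the same transcript as miR-20a, changed by 0.03 and -0.47 (-0.49, SE 0.08, adjusted p = 0.00467). Of the 12 miR-17 cluster members 10 fell in hyperoxia (48% over all) and 4 in normoxia (27.2% over all), and the difference between these counts was not tested. For the Dlk1-Dio3 region the values in hyperoxia were 36 falls and 1 rise among 37 (48% falls over all), with a median of -0.68 against -0.21. Of the 11 miRNAs whose change differed 0 belonged to it. As 3.63% of all miRNAs tested differed, a count of 0 in a region of this size is near that share. It does not show that the region changed alike in both exposures. The call for the difference of miR-34a-5p held in each of 30 alternative settings, from 1.08 to 1.32, whereas those of miR-20a-5p and miR-497-5p held in 24 and 25 and were lost with the percentile over all probes, the total gene signal, the series values and all 32 arrays in the fit.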

How the data were processed

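Groups were taken from the deposited labels. Each deposited scanner file gave the intensity of every spot, which per the file headers came from Agilent Feature Extraction 10.7.3.1, with a fitted background subtracted and no scaling between arrays. Other deposited values were per-spot flags of 0 or 1 (signal above background, saturation, outliers). The deposited series table held log2 signals per miRNA and was used as an alternative, and the steps by which the authors made it are not given in the sources used here. Its 32 columns each matched 1 sample. Probe positions were on mm9.

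Spots of a probe were averaged without outlying ones (0 spots were saturated), and each array was scaled to the 75th percentile of the 205 of 2754 probes (7.44%) well above background on all 32 arrays. Signals under 2.30 were raised to that floor before log2, and a miRNA was the mean of its probes. A probe was well above background where more than 50% of its spots carried that flag. A miRNA was detected where any of its probes was, and 290 of 1079 were tested. Differences were tested with limma 3.58.1 in R 4.3.3 (lmFit and eBayes), two-sided, with Benjamini-Hochberg adjustment and a threshold of 0.05. The fits were tested on simulated data. The study's own test was a t-test for unequal variances, kept as an alternative. The named miRNAs were the 10 largest rises and falls past the threshold, detected on all 8 arrays and without overlap, the 3 largest falls detected on no P5.5 array, up to 4 members of each list with the smallest p, all miR-29 and miR-34 members, and the 5 smallest p of the exposure difference. Others named, such as miR-127-3p, let-7f-5p, miR-322-5p and the cell type markers that did not pass, were chosen after their values were seen. The members, lists and alternatives were chosen with earlier results of these data known.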

Additional observations from a re-analysis of the deposited data

Results flagged for a closer look

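Of 120 groups of 4 arrays tested for an outlying array among the named miRNAs, 7 (5.83%) held one, where chance gives about 1 in 20. At P3.5 in normoxia, replicate 9 stood apart for 5 miRNAs (log2 scaled signal). It was the highest array for miR-449a-5p at 10.14 (next 9.57), miR-34b-5p at 8.83 (next 8.40) and miR-34c-3p at 3.56 (next 3.08), and the lowest for miR-150-5p at 5.22 (next 5.60) and miR-146a-5p at 7.11 (next 7.50). At P5.5 in normoxia, miR-675-3p was highest in replicate 19 at 2.75 (next 2.26) and miR-214-5p in replicate 20 at 2.07 (next 1.42), all of which lie under the detection limit of their arrays.

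The change from P3.5 to P5.5 differed between hyperoxia and normoxia for 11 miRNAs (limma interaction term, log2 units, hyperoxia minus normoxia). The difference was 1.19 for miR-34a-5p. It was negative for the others, at -0.49 for miR-18a-5p, -0.43 for miR-93-5p, -0.43 for miR-497-5p, -0.39 for miR-20a-5p, -0.36 for miR-20b-5p and -0.51 for miR-30a-3p. It was -0.31 for miR-342-3p, -1.50 for miR-335-3p, -0.37 for miR-3096b-3p and -0.30 for miR-151-5p.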

How the results depend on the processing

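The 106 calls between the ages became 69 with the 75th percentile over all probes, 52 with a 10 times higher floor, 54 without a detection filter, 60 with all 32 arrays in the fit and 64 with the methods' t-test. Leaving out 1 array gave 69 to 101 calls (123 to 136 at an unadjusted p under 0.05), the lowest without P5.5 replicate 17. The 75th percentile over probes detected on the 8 arrays gave 82, the total gene signal 91, the slide as a random block 87, normexp background correction 71, the brightest probe 108, the series values 73, the 16 normoxia arrays 117 and detection on every array 76 of 233. The removal of the GC trend, chosen after seeing the data, gave 81. Of 51 named calls between the ages 34 held without each array in turn. No paired analysis was possible because the groups share no replicate numbers. The P2.5 to P3.5 step had 0 calls in all 10 alternatives, with 9 to 25 unadjusted when 1 array was left out.

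The 11 calls of the exposure difference became 1 with the 75th percentile over all probes, with the total gene signal and with all 32 arrays in the fit, 4 with the percentile over probes detected on the arrays compared and with quantile normalization, 6 with the series values, 19 with the slide as a fixed block, 20 with the higher floor and 37 with array weights. Leaving out 1 array gave 5 to 22, with 5 without hyperoxia P3.5 replicate 13, 14 or 16 or normoxia P5.5 replicate 20, and 22 without hyperoxia P3.5 replicate 15. The causes were not tested.

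Medians of lists moved by more than the replicate SD as follows. With the percentile over all probes they were 0.050 for the miR-17 clusters, 0.068 for the group of miR-15, miR-322 and miR-503, 0.15 for let-7, 0.20 for the family of miR-99 and miR-125 and -0.22 for miR-26. With that over probes detected on the arrays compared they were 0.077, 0.095, 0.18, 0.23 and -0.19 in the same order, and 0.16 for miR-30. Quantile normalization gave 0.10, 0.013, 0.13 and 0.19 for the first 4, -0.054 for the family of miR-34 and miR-449 and -0.16 for leukocyte miRNAs. The series values gave 0.10, 0.028, 0.13 and 0.19 for the first 4, 0.19 for miR-30, -1.47 for the H19 and Igf2 miRNAs and -0.15 for leukocyte miRNAs. With normexp they were 0.085 and 0.011 for the first 2, -0.16 for Dlk1-Dio3, -0.041 for the H19 and Igf2 miRNAs, -0.037 for miR-29, -0.044 for miR-34 and miR-449, -0.13 for mesenchymal and -0.10 for leukocyte miRNAs. The brightest probe gave 0.039 for the group of miR-15 and 0.19 for let-7, array weights 0.19 for miR-99 and miR-125, and detection on every array 0.058 for the miR-17 clusters. The total gene signal gave -1.47 for the H19 and Igf2 miRNAs, -0.074 for miR-30 and -0.40 for miR-34 and miR-449. Without a detection filter, which adds miRNAs at the floor, they were 0.00 for Dlk1-Dio3, miR-99 and miR-125, miR-29 and miR-26, -0.16 for the H19 and Igf2 miRNAs and -0.082 for leukocyte miRNAs, and the higher floor gave 0.00 for the H19 and Igf2 miRNAs. With the GC trend removed they were 0.034 for the group of miR-15, 0.22 for let-7, -0.035 for miR-29, -0.071 for miR-30, -0.17 for miR-26, 0.044 for endothelial and -0.12 for leukocyte miRNAs. Without 1 array they ranged from -0.10 to -0.016 for the group of miR-15 (lowest without P3.5 replicate 11), from 0.026 to 0.15 for let-7 (highest without P5.5 replicate 17) and from 0.047 to 0.18 for miR-99 and miR-125 (highest without P3.5 replicate 9). Between 8 and 32 Dlk1-Dio3 members fell over the 24 alternatives, and 0 rose.

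Of the 65 results for single miRNAs, 4 changed sign under some alternative, and none of these 4 was past the threshold. MiR-34a-5p was at 0.096 with the percentile over all probes, 0.12 with that over the arrays compared, 0.074 with quantile normalization, 0.069 with normexp, 0.072 with the series values, 0.061 with the brightest probe and 0.016 with the GC trend removed, and from -0.048 to 0.029 without 1 array. MiR-34c-3p was at 0.024 and 0.051 with the first 2 of these, 0.042 with quantile normalization, 0.058 with the brightest probe and 0.10 with array weights, and from -0.19 to 0.054 without 1 array. MiR-29a-3p was at 0.020 with quantile normalization, 0.065 with normexp and 0.032 with the series values, and from -0.22 to 0.017 without 1 array. MiR-1a-3p was at 0.045 with array weights. The dimmer P5.5 arrays limit what can be said of low miRNAs, for which a fall at P5.5 is measured down to a higher detection limit than at P3.5.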
